A study of Mus musculus with 24 samples.

Results

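Glutathione transferases and the genes that handle oxidants around them were followed in 7 mouse tumour cell lines as a set of 54 genes. They were listed by name from the 22911 gene symbols on the array, with earlier results of these data known. The set holds the regulators Nfe2l2 and Keap1, reductases and heme oxygenase, glutathione synthesis and recycling, glutathione peroxidases, 17 cytosolic, mitochondrial and microsomal transferases, thioredoxins and peroxiredoxins, superoxide dismutases and catalase, export pumps and glucuronosyltransferases, and Selenbp1. RNA was measured on 1-colour arrays in parental B16F1 melanoma cells carrying GFP (B16-M, 3 arrays), in the dormant melanoma line derived from them (B16-D, 3 arrays used) and in the dormant lines B16-D-733 (4 arrays), B16-D-735 (3) and B16-D-739 (3). The leukemia arrays held M0-p20 (4), read here as the parental myeloid line DA1-3b because it is the only parental leukemia line of the study, and J365-p20 (3), the dormant leukemia line. The methods describe dormant cells as recovered from syngeneic mice with minimal residual disease after immunotherapy, and the later melanoma lines as a further generation taken from the brain. All lines were expanded in vitro, the dormant ones too, so that they were growing cells when RNA was taken, and the melanoma cells were kept in DMEM with serum. Each line is 1 isolate, the labels do not tie the 3 later lines to the numbering of the methods, and they do not say that arrays of a line came from separate cultures. The p-values therefore measure the spread between arrays, which may be technical.

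Keap1 holds the transcription factor NRF2, the product of Nfe2l2, in the cytoplasm and delivers it for degradation, and oxidants or electrophiles release NRF2 to act at antioxidant response elements. Glutathione transferases join glutathione to reactive lipids and drugs, peroxiredoxins and glutathione peroxidases remove peroxides, and superoxide dismutases convert superoxide. In melanocytic cells the pathway is known for handling the oxidants that melanin synthesis makes, and in many tumours for resistance to drugs.

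Mgst1, Gstt1, Gstt3 and Gstk1 are shown here by the 250 bases before their annotated starts. They are the transferases with a promoter window that passed the test in at least 3 of the 4 dormant melanoma lines. The first 3 were lower and Gstk1 was higher. Cbr1 and Txnrd2, which are not transferases, also passed in 3 of the 4 lines and are not shown. The sequences are from RefSeq on GRCm38.p6, written 5′ to 3′ on the strand of the gene, with capitals marking the core of an antioxidant response element, TGACNNNGC, on either strand. Mgst1 lies at chr6:138140277-138140526 on the plus strand, Gstk1 at chr6:42245685-42245934 on the plus strand, Gstt1 at chr10:75797732-75797981 on the minus strand and Gstt3 at chr10:75781415-75781664 on the minus strand. Mgst1 has a further annotated start without the core, and Gstt3 has another start 8 bases away.
Mgst1: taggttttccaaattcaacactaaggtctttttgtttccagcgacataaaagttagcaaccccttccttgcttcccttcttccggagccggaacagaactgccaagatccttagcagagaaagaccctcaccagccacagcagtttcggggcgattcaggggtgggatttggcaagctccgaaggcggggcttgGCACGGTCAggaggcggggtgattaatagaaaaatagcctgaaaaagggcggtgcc
Gstk1: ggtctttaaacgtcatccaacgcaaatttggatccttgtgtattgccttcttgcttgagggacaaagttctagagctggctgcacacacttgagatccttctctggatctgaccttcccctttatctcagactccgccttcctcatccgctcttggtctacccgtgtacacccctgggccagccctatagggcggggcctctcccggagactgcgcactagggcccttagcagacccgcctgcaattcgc
Gstt1: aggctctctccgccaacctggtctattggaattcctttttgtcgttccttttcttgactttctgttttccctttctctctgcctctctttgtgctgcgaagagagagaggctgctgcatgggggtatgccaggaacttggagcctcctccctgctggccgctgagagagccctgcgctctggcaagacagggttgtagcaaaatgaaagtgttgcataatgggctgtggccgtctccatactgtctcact
Gstt3: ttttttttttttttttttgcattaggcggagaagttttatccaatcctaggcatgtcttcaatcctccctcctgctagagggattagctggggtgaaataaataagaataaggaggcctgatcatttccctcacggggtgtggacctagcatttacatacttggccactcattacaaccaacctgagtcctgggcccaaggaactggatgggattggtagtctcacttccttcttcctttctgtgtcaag

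Mgst1 held 1 core, which begins 56 bases before the start, and the other 3 windows held none. Promoter windows were found for 45 of the 54 genes, the others being Gsta4, Gstt2, Abcc1, Gclc, Prdx6, Hmox1, Ugt1a6b, Sod3 and Gsr. Counting windows of 300 bases, from 250 before to 50 after the start, 16 of the 61 windows of these genes held the core, against 12.4% of all 32817 windows. The 13 genes with at least 1 such window were Abcc4, Gclm, Ggt1, Gsta3, Gstm5, Gstm7, Me1, Mgst1, Nfe2l2, Prdx1, Sod1, Srxn1 and Txnrd1. The AP-1 site TGACTCA can overlap the core and was in 6 of the 61 windows and in 5.20% of all windows. A match describes letters in the window and not a site in use. In the RefSeq gene order Gstt3, Gstt1, Gstt4 and Gstt2 follow each other on chromosome 10, and Gstm5, Gstm7, Gstm6, Gstm3, Gstm2 and Gstm1 lie together on chromosome 3. Probes of such close relatives may share RNA, and the files give no probe sequences to test it.

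Signals are log2 values after dividing by the 75th percentile of each array, so that 0 is a spot brighter than 75% of the array, and each gene is read from its brightest probe. Of the 54 genes, 38 were well above the background on every array of all lines and 3, Gpx3, Gpx7 and Ugt1a6a, on no array used. The number above the background on every array of a line was 47 in B16-M, 48 in B16-D, 49 in B16-D-733, 47 in B16-D-735, 48 in B16-D-739, 42 in M0-p20 and 41 in J365-p20. Genes at the background on all leukemia arrays included Cbr3, Gpx8, Gstm7, Gstk1, Prdx4 and Sod3. B16-D replicate 2 was left out, since 90.3% of its spots exceeded the background, far from the 46.0% to 55.8% of the rest. All 8 melanocytic markers were above the background on every melanoma array, with a summed signal of 1474 to 1737 in units of the 75th percentile, against 1.52 to 6.59 in the leukemia lines. Of 10 hematopoietic markers, 8 were above it on every leukemia array, and Kit and Cd34 were not. Replicate 0 of B16-D and of B16-D-733 stood apart from the other arrays of their lines for Gsta3, Nqo1 and Sod3, among others, and replicate 0 of both leukemia lines did so for Hmox1 and Selenbp1.

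Members passed the test in both directions in each of the 4 dormant melanoma lines. In limma, with p-values adjusted by Benjamini-Hochberg across the 24310 genes and unnamed transcripts tested in melanoma and a threshold of 0.05, 6 of the 51 members tested passed in B16-D against B16-M (3 higher, 3 lower), where 3.57% of all genes passed (2.00% higher, 1.58% lower). In B16-D-733, 10 passed (5 higher, 5 lower), with 5.64% of all genes (3.26% higher, 2.37% lower). B16-D-735 had 13 (6 higher, 7 lower), with 5.05% (3.06% higher, 1.99% lower), and B16-D-739 had 10 (6 higher, 4 lower), with 3.69% (2.16% higher, 1.53% lower). The median log2 fold change of the tested members was -0.03, -0.08, -0.18 and -0.01 in these 4 comparisons, beside -0.04, 0.03, -0.01 and 0.00 over all genes. At an unadjusted p under 0.05, 18, 22, 20 and 18 members passed, but the share of all genes at that level was not counted. The count in B16-D was 2 without B16-M replicate 1 and 10 without B16-D replicate 0, and that in B16-D-739 was 6 without B16-M replicate 1, B16-D-739 replicate 0 or B16-D-739 replicate 1. The comparisons share the 3 B16-M arrays, so they are not independent of each other. Over the 4 of them, 18 members passed at least once, none in both directions, 7 in 1 comparison only, and 36 in none, counting the 3 that were not tested. The share of all genes that passed at least once was not counted. The calls that held under all 12 other settings and without any 1 array were Gsta4 and Gstt3 in B16-D, Gsta4, Gstk1, Gstt3, Mgst1 and Sod3 in B16-D-733, Gsta4, Gstk1, Gstm7, Gstt1 and Mgst1 in B16-D-735, and Cbr1, Gsta4, Gstk1, Gstt3 and Mgst1 in B16-D-739. Every other call against B16-M was lost under at least 1 of these. Sod3 was at the background in B16-M and Gstm7 in B16-D-735, and Gsta4 was not above it on every B16-M array. The calls of these genes are therefore descriptions.

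**Figure D1:**
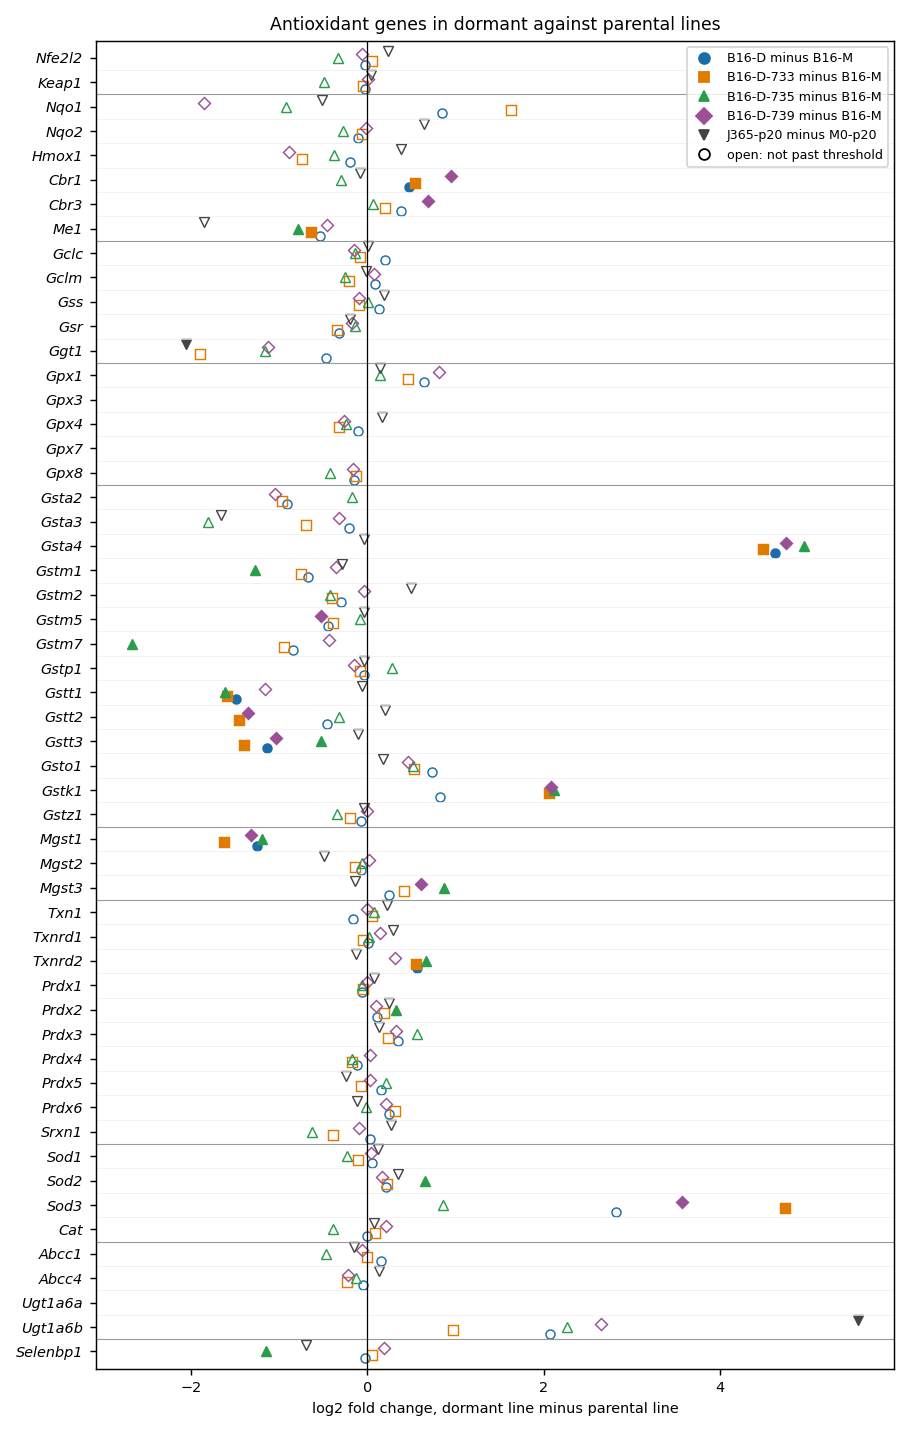
Log2 fold changes (x axis) of the 54 genes (y axis, ordered by role, grey lines between roles) in the 4 dormant melanoma lines against B16-M and in J365-p20 against M0-p20. Filled symbols passed the adjusted threshold, open ones did not, a missing symbol was not tested, and Gsta4 lies between 4.49 and 4.95 in the melanoma lines while Gstt3 and Mgst1 lie left of 0.

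The regulators themselves differed little. Nfe2l2 had log2 signals of 3.63, 3.40 and 3.42 on the B16-M arrays and 3.49, 3.36 and 3.50 on the B16-D arrays. It read 3.58, 3.58, 3.52 and 3.46 in B16-D-733, 3.22, 3.03 and 3.19 in B16-D-735 and 3.51, 3.26 and 3.50 in B16-D-739. The arrays of B16-D-735 were all below those of the other melanoma lines, which overlapped each other. Keap1 was at 2.19, 2.30 and 2.59 in B16-M, 2.33, 2.40 and 2.27 in B16-D and 2.22, 2.15, 2.51 and 2.36 in B16-D-733. It was at 1.76, 2.15 and 1.69 in B16-D-735 and at 2.34, 2.23 and 2.52 in B16-D-739. Neither regulator passed the threshold against B16-M in any line, with log2 fold changes from -0.34 to 0.05 for Nfe2l2 and from -0.50 to 0.00 for Keap1.

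Gsta4, the alpha-class transferase that conjugates 4-hydroxynonenal and other products of lipid peroxidation, was the only member higher in all 4 dormant melanoma lines. Its log2 signal was -4.78, -4.78 and -6.04 in B16-M, where 1 of the 3 arrays was above the background. It was 0.08, -1.01 and -0.77 in B16-D and -1.10, -0.60, -0.49 and -0.64 in B16-D-733. It reached 0.23, -0.50 and -0.47 in B16-D-735 and -0.98, -0.10 and -0.28 in B16-D-739. Every dormant array was above the background and far above every parental array, and the dormant lines overlapped each other. The log2 fold changes in limma were 4.63 (standard error 0.38, adjusted p = 1.52e-05) in B16-D, 4.49 (0.36, 4.35e-06) in B16-D-733, 4.95 (0.38, 4.44e-06) in B16-D-735 and 4.75 (0.38, 7.32e-06) in B16-D-739. With normexp background correction, which adds an offset of 50 to the signals, they were 2.41, 2.31, 2.67 and 2.60. The gene met the filter of 3 arrays only with arrays of the dormant lines, so its calls are descriptions. Their sizes are set in part by the background. Within slides, which each carried arrays of several lines, the differences ran from 3.68 to 5.76. No other dormant melanoma line differed from B16-D in this gene past the threshold.

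Gstk1, a transferase of mitochondria and peroxisomes, was highest in the 3 later lines. B16-M had -0.56, -0.08 and 0.61, and B16-D had 0.96, 0.73 and 0.77. The signals were 2.22, 1.94, 2.05 and 2.01 in B16-D-733, 1.89, 2.32 and 2.12 in B16-D-735 and 1.78, 2.09 and 2.36 in B16-D-739. B16-D lay between B16-M and the later lines, without overlap on either side. Against B16-M the log2 fold changes were 2.07, 2.12 and 2.08 in the later lines (adjusted p from limma 8.94e-05, 0.000144 and 0.000201) and 0.82 in B16-D, which did not pass (adjusted p = 0.0876). Against B16-D they were 1.24 in B16-D-733 (adjusted p = 0.0272), 1.30 in B16-D-735 (0.00544) and 1.26 in B16-D-739, which did not pass (0.0547). The call in B16-D-733 against B16-D was lost without any 1 of its 7 arrays, at 1.19 to 1.31, and it was the only member of 51 to pass there, where 0.477% of all genes passed (0.411% higher, 0.0658% lower). No member passed in B16-D-739 against B16-D with limma, where 0.317% of all genes did (0.239% higher, 0.0782% lower). There 7 members had an unadjusted p under 0.05, but the share of all genes at that level was not counted.

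The theta-class transferases, which act on small halogenated compounds among others, were lower in several dormant lines. Gstt3 read 1.96, 2.01 and 2.09 in B16-M, 1.00, 0.86 and 0.77 in B16-D and 0.67, 0.52, 0.63 and 0.65 in B16-D-733. It read 1.51, 1.60 and 1.37 in B16-D-735 and 0.80, 0.98 and 1.17 in B16-D-739. All dormant arrays were below all parental arrays, and B16-D-735 stood between them and the other dormant lines without overlap. Gstt3 fell by 1.14 in B16-D, 1.40 in B16-D-733, 0.53 in B16-D-735 and 1.03 in B16-D-739 on the log2 scale (standard errors 0.11, 0.10, 0.11 and 0.11, adjusted p from limma 7.85e-05, 2.52e-06, 0.0151 and 0.000111). The call in B16-D-735 was lost without B16-M replicate 1, B16-M replicate 2 or B16-D-735 replicate 2, with values from -0.58 to -0.46 over the left-out arrays, and the other 3 calls held without any array. Within slides its differences stayed between -1.47 and -0.50. The study's paper lists GSTT3 among lowered proteins whose genes were deleted only in its dormant melanoma cells. Copy number was not measured on these arrays, and its part in the values of Gstt3 and its neighbours was not tested.

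Gstt1 and Gstt2 were dimmer and noisier. Gstt1 had -1.76, -1.41 and -1.22 in B16-M, -3.33, -2.73 and -2.80 in B16-D and -2.67, -3.36, -3.51 and -2.72 in B16-D-733. It had -3.36, -2.76 and -3.12 in B16-D-735 and -3.33, -2.46 and -2.11 in B16-D-739. No dormant array reached the parental arrays. Gstt1 fell by 1.49 in B16-D (adjusted p from limma 0.0225), 1.60 in B16-D-733 (0.00649) and 1.62 in B16-D-735 (0.00962), while the -1.17 of B16-D-739 did not pass (0.0707). The B16-D call was lost without B16-M replicate 1, B16-M replicate 2 or B16-D replicate 0, with values from -1.64 to -1.30. With normexp the 3 calls were -0.86, -1.04 and -1.09, and with the date mark that some titles of B16-D and B16-D-733 arrays carry as a covariate the calls in B16-D and B16-D-733 were lost.

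Gstt2 read -2.99, -2.79 and -2.41 in B16-M, -2.77, -3.21 and -3.59 in B16-D and -3.79, -4.47, -4.44 and -4.07 in B16-D-733. It read -3.03, -2.83 and -3.31 in B16-D-735 and -4.38, -4.24 and -3.64 in B16-D-739. The lines B16-D-733 and B16-D-739 lay below B16-M without overlap, whereas B16-D and B16-D-735 overlapped it. Gstt2 fell by 1.46 in B16-D-733 (adjusted p from limma 0.00319) and 1.36 in B16-D-739 (0.0103). The call in B16-D-739 was lost without B16-M replicate 2, B16-D-739 replicate 0 or B16-D-739 replicate 1, at -1.58 to -1.20. With normexp the values were -0.65 and -0.54, and the call in B16-D-733 held. It was lost, at -1.03, with the date mark as a covariate. For their neighbour Gstt4 no array used was above the background.

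Mgst1, an abundant microsomal transferase and peroxidase of the endoplasmic reticulum and outer mitochondrial membrane, was lower in all 4 dormant lines. The parental arrays had 2.89, 3.12 and 3.00. The dormant arrays had 2.48, 1.31 and 1.47 in B16-D, 1.56, 1.40, 1.11 and 1.41 in B16-D-733, 1.70, 1.82 and 1.90 in B16-D-735 and 1.59, 1.78 and 1.70 in B16-D-739. All lay below B16-M, and B16-D replicate 0 was the nearest to it. Mgst1 fell by 1.25 in B16-D, 1.63 in B16-D-733, 1.20 in B16-D-735 and 1.32 in B16-D-739 (standard errors 0.24, 0.22, 0.24 and 0.24, adjusted p from limma 0.0109, 0.000566, 0.0095 and 0.00619). Another probe of the gene gave -1.05, -1.57, -1.09 and -1.17. The B16-D call was lost without B16-M replicate 1, and its left-out values ran from -1.62 to -1.03. Mgst3, a microsomal transferase of leukotriene synthesis, went the other way, at -1.08, -1.02 and -0.52 in B16-M against -0.21, 0.13 and 0.08 in B16-D-735 and -0.38, -0.24 and -0.17 in B16-D-739. It was at -0.58, -0.61 and -0.70 in B16-D and at -0.32, -0.59, -0.43 and -0.48 in B16-D-733. Mgst3 rose by 0.87 in B16-D-735 (adjusted p from limma 0.00358) and 0.61 in B16-D-739 (0.0411), the latter a call lost without 5 of its 6 arrays, each in turn, at 0.50 to 0.79. Mgst2 stayed between -0.14 and 0.02 in these comparisons and never passed.

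**Figure D2:**
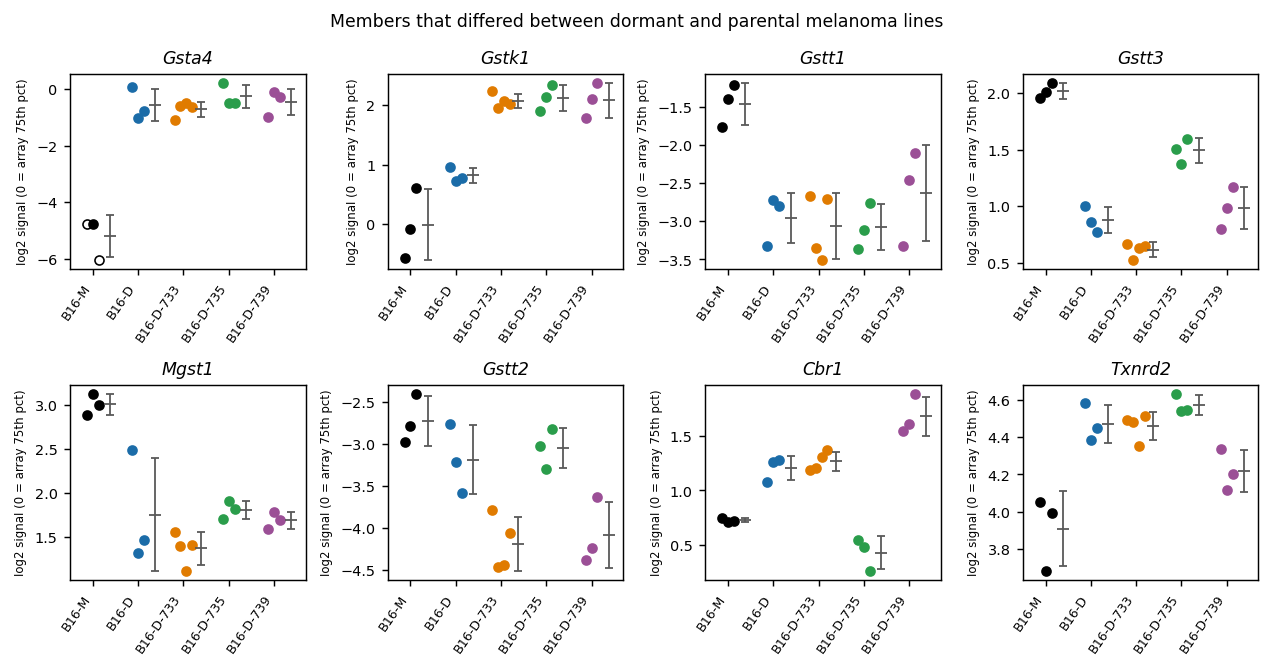
Log2 signal (y axis, 0 is the 75th percentile of the array) of Gsta4, Gstk1, Gstt1, Gstt3, Mgst1, Gstt2, Cbr1 and Txnrd2 on each array of the 5 melanoma lines (x axis). Points are arrays, open where the probe was not above the background, and bars give the mean ± SD of a line. Gsta4 rises from a mean of -5.20 to means of -0.71 to -0.25 in the dormant lines while Gstt3 and Mgst1 fall.

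The mu class, whose genes cluster on chromosome 3, gave calls in single lines. Gstm1 was at 3.62, 3.41 and 3.44 in B16-M, 3.27, 2.41 and 2.76 in B16-D and 3.39, 2.59, 2.22 and 2.73 in B16-D-733. It was at 2.33, 1.91 and 2.39 in B16-D-735 and at 3.32, 3.19 and 2.87 in B16-D-739. All dormant arrays were below the parental ones, and in B16-D and B16-D-733 replicate 0 came closest. Gstm1 fell by 1.28 in B16-D-735 (adjusted p from limma 0.0164), a call lost without B16-M replicate 0, B16-M replicate 1 or B16-D-735 replicate 1, at -1.37 to -1.13. Its other probe gave -1.26.

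Gstm5 was at 2.73, 2.83 and 3.01 in B16-M, 2.60, 2.31 and 2.32 in B16-D and 2.51, 2.37, 2.43 and 2.56 in B16-D-733. It was at 2.69, 2.82 and 2.80 in B16-D-735 and at 2.20, 2.38 and 2.41 in B16-D-739. B16-D-735 overlapped the parental arrays and the other dormant lines lay below them. Gstm5 fell by 0.53 in B16-D-739 (adjusted p from limma 0.02), and the call was lost without 4 of 6 arrays, each in turn, at -0.59 to -0.45. Gstm2 ranged from -0.43 to -0.04 over the 4 comparisons and did not pass.

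Among the remaining transferases Gsta2, Gsta3, Gstp1, Gsto1 and Gstz1 passed in no dormant melanoma line. Gsta2, an alpha-class enzyme, had log2 fold changes from -1.04 to -0.18, and Gsto1, the omega-class enzyme with reductase activity, from 0.46 to 0.73. Gsta3 differed between arrays of a line. It was at 0.43 on B16-D replicate 0 against -2.84 and -3.13 on the other arrays, and at -0.20 on B16-D-733 replicate 0 against -3.23 to -2.79.

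Of the reductases, Cbr1, the cytosolic carbonyl reductase, was higher in 3 of the 4 dormant lines. It had 0.75, 0.71 and 0.72 in B16-M, 1.08, 1.26 and 1.27 in B16-D and 1.19, 1.20, 1.30 and 1.37 in B16-D-733. It had 0.55, 0.26 and 0.48 in B16-D-735 and 1.54, 1.60 and 1.88 in B16-D-739. B16-D-735 lay below the parental arrays and the other dormant lines above them. Cbr1 rose by 0.95 in B16-D-739 (adjusted p from limma 0.000287), 0.54 in B16-D-733 (0.00989) and 0.48 in B16-D (0.0409), and read -0.30 in B16-D-735, which did not pass. The B16-D call was lost without 5 of 6 arrays, each in turn, at 0.44 to 0.54, and under 7 of the 12 other settings. The B16-D-733 call was lost with normexp (0.42) and with the date mark as a covariate (0.43).

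Cbr3, a related reductase, had 2.49, 2.48 and 2.70 in B16-M, 2.85, 3.04 and 2.92 in B16-D and 3.00, 2.54, 2.85 and 2.64 in B16-D-733. It had 2.59, 2.85 and 2.42 in B16-D-735 and 2.96, 3.20 and 3.58 in B16-D-739. The last line was above the parental arrays and rose by 0.69 (adjusted p from limma 0.043), a call lost without 5 of its 6 arrays, each in turn, at 0.53 to 0.83, and with the replicate number as a block. Me1, the malic enzyme that makes NADPH, had 3.67, 3.66 and 3.70 in B16-M, 3.63, 2.87 and 2.92 in B16-D and 3.18, 3.03, 3.03 and 2.91 in B16-D-733. It had 3.14, 2.88 and 2.67 in B16-D-735 and 3.35, 3.20 and 3.1 in B16-D-739. Every dormant array was below the parental ones, although B16-D replicate 0 was close to them. Me1 fell by 0.64 in B16-D-733 (adjusted p from limma 0.046) and 0.78 in B16-D-735 (0.0246), calls that were lost without any of 7 arrays (-0.69 to -0.60) and without 5 of 6 (-0.90 to -0.67). With the date mark as a covariate the B16-D-733 value was -0.30 and not past the threshold, and normexp and the fit without a filter also ended both calls.

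Nqo1, Hmox1, Gclc, Gclm, Txnrd1 and Srxn1 did not pass in any dormant melanoma line. Nqo1, a quinone reductase, was near the background, at -4.09, -5.47 and -4.75 in B16-M and -2.24, -4.76 and -4.77 in B16-D. It was at -1.62, -3.71, -3.67 and -3.57 in B16-D-733, at -5.83, -5.15 and -6.09 in B16-D-735 and at -6.01, -6.95 and -6.90 in B16-D-739. No array of the last pair of lines was above the background for it, whereas all arrays of B16-D and B16-D-733 were. Its log2 fold changes against B16-M ran from -1.85 to 1.63. Hmox1, heme oxygenase, ran from -0.89 to -0.20, Gclc and Gclm, the subunits of the enzyme that limits glutathione synthesis, from -0.15 to 0.20 and from -0.25 to 0.09, Txnrd1 from -0.05 to 0.14 and Srxn1, sulfiredoxin, from -0.63 to 0.03. Gss, Gsr, Nqo2, Gpx1, Gpx4 and Gpx8 also passed in none, with the lowest value at -0.43 for Gpx8 and the highest at 0.81 for Gpx1. Ggt1, which cleaves extracellular glutathione, had values from -1.90 to -0.47 and was above the background on 2 of 3 B16-D arrays, 1 of 4 B16-D-733 arrays and 1 of 3 B16-D-739 arrays.

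Thioredoxins and peroxiredoxins were level for the most part. Txnrd2, the mitochondrial thioredoxin reductase, had 4.05, 3.68 and 4.0 in B16-M, 4.58, 4.38 and 4.45 in B16-D and 4.49, 4.48, 4.35 and 4.51 in B16-D-733. It had 4.63, 4.54 and 4.54 in B16-D-735 and 4.34, 4.12 and 4.20 in B16-D-739. All dormant arrays were above the parental ones. Txnrd2 rose by 0.56 in B16-D, 0.55 in B16-D-733 and 0.66 in B16-D-735 (adjusted p from limma 0.016, 0.00785 and 0.00365), and its 0.31 in B16-D-739 did not pass. The B16-D call was lost without B16-M replicate 1, with left-out values from 0.45 to 0.63. Its other probe, also above the background on every array, gave 0.58, 0.38, 0.03 and 0.33 in the same order, so the size in B16-D-735 rests on the probe. With the mean of all probes the calls in B16-D-733 and B16-D-735 were lost.

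Prdx2 had 5.41, 5.37 and 5.51 in B16-M, 5.62, 5.49 and 5.51 in B16-D and 5.64, 5.59, 5.63 and 5.63 in B16-D-733. It had 5.73, 5.75 and 5.78 in B16-D-735 and 5.52, 5.45 and 5.62 in B16-D-739. It rose by 0.32 in B16-D-735 (adjusted p from limma 0.0457), a call lost without any 1 of its 6 arrays, at 0.29 to 0.36. Txn1, Txnrd1, Prdx1, Prdx3, Prdx4, Prdx5, Prdx6 and Srxn1 passed in none of the 4 comparisons. Prdx1, a cytosolic peroxiredoxin, stayed between -0.06 and -0.01, and Prdx3, the mitochondrial one, between 0.24 and 0.57. The export pumps Abcc1 and Abcc4 passed in none either, at -0.47 to 0.15 and -0.23 to -0.05.

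Sod3, the extracellular superoxide dismutase, was not above the background in B16-M, at -6.60, -7.28 and -6.87. It had -2.24, -4.87 and -5.18 in B16-D, where replicate 0 was the only array above it, and -0.90, -2.57, -2.75 and -2.47 in B16-D-733. It had -7.19, -5.79 and -5.20 in B16-D-735, again at the background, and -2.92, -3.90 and -3.23 in B16-D-739. Sod3 was at least 6.53-fold higher in B16-D-733 (adjusted p from limma 0.000935) and at least 2.89-fold higher in B16-D-739 (0.0142) than in B16-M. It entered the test only through arrays of the lines where it was high, so these calls are descriptions. Such bounds set the mean of the bright line against the lowest signal above the background on each array of the dim line, or the dim probe's own signal where that was higher. The call in B16-D-739 was lost with normexp, and without B16-M replicate 1, B16-M replicate 2, B16-D-739 replicate 0 or B16-D-739 replicate 2, at fitted values of 3.35 to 3.84. The fitted value in B16-D-733 was 4.74, and 1.46 with normexp. The fitted 2.82 in B16-D did not pass (adjusted p = 0.0554). Sod1, Sod2 and Cat had values between -0.39 and 0.65, and of these Sod2 passed in B16-D-735 alone.

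B16-D-735 differed from the other dormant lines in this set. Against B16-D, 7 of 51 members passed (4 higher, 3 lower), where 8.07% of all genes did (4.05% higher, 4.02% lower), with a median of -0.14 over the members and 0.04 over all genes. Against the mean of B16-D-733 and B16-D-739, 12 passed (6 higher, 6 lower), where 10.9% did (5.22% higher, 5.65% lower), with medians of -0.03 and -0.02. The latter count was 7 without B16-D-735 replicate 0 or replicate 2. Of 6 fibroblast markers, 3 (Dcn, Col1a1 and Col1a2) were above the background on every B16-D-735 array, and Col1a2 was so on every array of the other melanoma lines too. The summed signal was 1.11 to 1.53 against 0.288 to 0.775 in the other melanoma lines. Col3a1, Pdgfra and Lum were at the background in B16-D-735, whereas Pdgfra was above it on every B16-M array. The part of these markers in the results of B16-D-735 was not tested. The number of cells of a type and the RNA per cell cannot be told apart in such samples.

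Gstm7, a mu-class enzyme, carried the largest of these differences among transferases. It had -3.49, -3.02 and -2.92 in B16-M, -4.04, -3.93 and -3.99 in B16-D and -3.41, -4.60, -4.29 and -4.06 in B16-D-733. It had -3.88, -3.64 and -3.23 in B16-D-739, and -6.22, -5.78 and -5.45 in B16-D-735, where no array was above the background. The gene entered the test only through arrays of the other lines, so its calls here are descriptions. Gstm7 was at least 3.79-fold lower in B16-D-735 than in B16-M (adjusted p from limma 7.99e-05) and at least 2.11-fold lower than in B16-D (0.00148). Its fitted difference from B16-D-733 and B16-D-739 was -1.98 (adjusted p = 0.000186), and none of these 3 calls was lost without any 1 array. With normexp they were -0.95, -0.57 and -0.62. Sod3, at the background on every B16-D-735 array, was among the calls against B16-D-733 and B16-D-739, where the fitted -3.30 (-1.22 with normexp) is not a measured size.

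Selenbp1, a selenium-binding methanethiol oxidase, had 2.02, 2.03 and 2.39 in B16-M, 1.50, 2.55 and 2.33 in B16-D and 2.19, 2.14, 2.09 and 2.37 in B16-D-733. It had 0.75, 1.21 and 1.02 in B16-D-735 and 2.13, 2.30 and 2.55 in B16-D-739. B16-D-735 was below all other melanoma arrays. Selenbp1 fell by 1.16 against B16-M (adjusted p from limma 0.0105), 1.13 against B16-D (0.00988) and 1.27 against the other 2 lines (0.00112), of which the first call was lost without B16-M replicate 2 or B16-D-735 replicate 0, at -1.27 to -1.03. The call against B16-D was lost with the date mark as a covariate, at -0.83, and in the fit of those lines alone. Sod2, the mitochondrial superoxide dismutase, moved up, from 1.16, 0.88 and 0.94 in B16-M, 1.32, 1.07 and 1.23 in B16-D, 1.36, 1.24, 1.09 and 1.16 in B16-D-733 and 1.36, 1.02 and 1.07 in B16-D-739 to 1.69, 1.61 and 1.64 in B16-D-735. It rose by 0.65 against B16-M (adjusted p from limma 0.0064), 0.44 against B16-D (0.0439) and 0.46 against the other 2 lines (0.0118). The second of these calls was lost without 5 of 6 arrays, each in turn, at 0.37 to 0.50, and the last without B16-D-735 replicate 0, with left-out values from 0.43 to 0.51.

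Gstt3, Gstt2 and Cbr1 divided the later lines as well. Against B16-D-733 and B16-D-739, B16-D-735 had more Gstt3 by 0.69 (adjusted p from limma 0.000464) and more Gstt2 by 1.08 (0.00755). It had less Cbr1, by a log2 difference of -1.04 (1.83e-05). None of these calls was lost without any 1 array, but that of Gstt2 was lost with normexp, at 0.39. Against B16-D, Gstt3 was higher by 0.62 (0.00452), Mgst3 by 0.63 (0.0214) and Cbr1 differed by -0.77 (0.00113). The Mgst3 call was lost without 4 of 6 arrays, each in turn, at 0.56 to 0.73. In the fit of those lines alone each of these calls was lost. Nfe2l2 and Keap1 differed from the other 2 lines by -0.33 (adjusted p = 0.0311) and -0.47 (0.0309), and these calls were lost without 7 and 5 of the 10 arrays, each in turn, at -0.37 to -0.27 and -0.61 to -0.38. Gsta2 (0.83), Gstm5 (0.37) and Gstp1 (0.40) completed the list, and their calls were lost without 8, 3 and 10 of the 10 arrays, each in turn, at 0.65 to 1.05, 0.34 to 0.41 and 0.33 to 0.44.

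**Figure D3:**
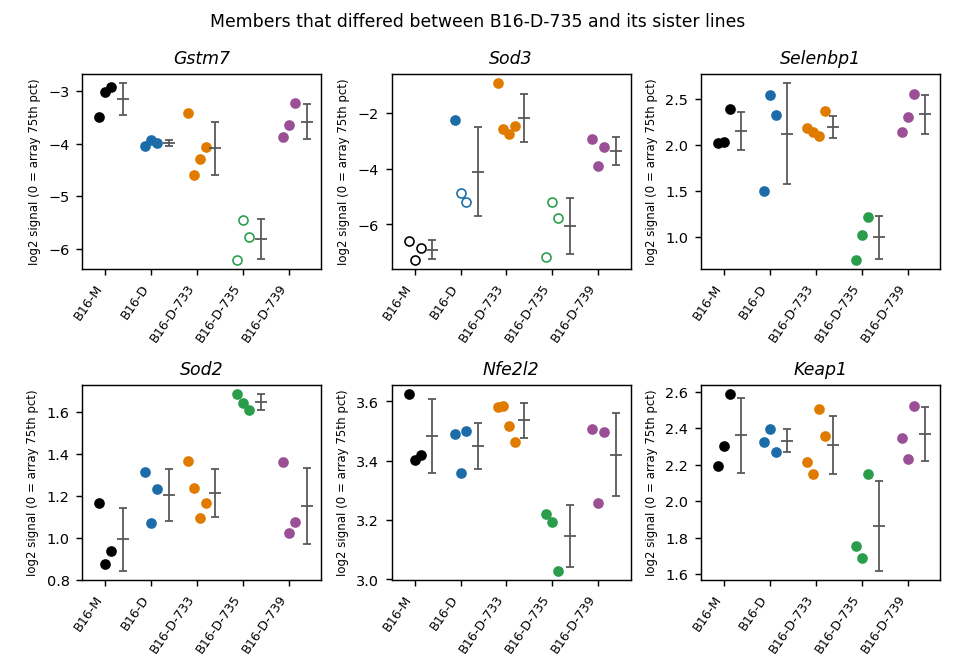
Log2 signal (y axis, 0 is the 75th percentile of the array) of Gstm7, Sod3, Selenbp1, Sod2, Nfe2l2 and Keap1 on each array of the 5 melanoma lines (x axis). Points are arrays, open where the probe was not above the background, and bars give the mean ± SD. Gstm7 and Selenbp1 are lowest and Sod2 highest in B16-D-735.

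In leukemia, few of these genes differed between the dormant and the parental line. Of 43 members tested, 2 passed in J365-p20 against M0-p20 (1 higher, 1 lower), where 1.07% of all genes did (0.488% higher, 0.579% lower). The median log2 fold change was 0.01 for the members and -0.01 for all genes. An unadjusted p under 0.05 was reached by 6 members, but the share of all genes at that level was not counted. The count was 1 without any 1 of the J365-p20 arrays. The 11 members not tested were Cbr3, Gpx3, Gpx7, Gpx8, Gsta2, Gstm7, Gstk1, Mgst1, Prdx4, Sod3 and Ugt1a6a.

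Ugt1a6b, a glucuronosyltransferase for phenols, read -6.33, -4.99, -6.92 and -6.61 in M0-p20, all at the background, and -0.82, -0.37 and -0.72 in J365-p20. The lines were far apart, with a bound of at least 16.1-fold higher in the dormant line. The gene entered the test only through the 3 J365-p20 arrays, so it had to differ, and its call is a description. The fitted difference was 5.57, and 2.35 with normexp. Its other probes gave fitted log2 fold changes of 2.18, with 4 of 7 arrays above the background, and -0.19, with none. Without any 1 of the J365-p20 arrays the gene was no longer above the background on 3 arrays and was not tested. Ugt1a6a, which shares exons with it, was at the background throughout. In melanoma the same probe of Ugt1a6b was above the background on 1 of 3 B16-D arrays, 1 of 4 B16-D-733 arrays, 2 of 3 B16-D-735 arrays and 2 of 3 B16-D-739 arrays, and passed in no comparison.

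Ggt1 was lower, at -2.69, -2.54, -2.87 and -3.09 in M0-p20 and -4.87, -4.71 and -4.99 in J365-p20, where 1 of 3 arrays was above the background. It fell by 2.06 (adjusted p from limma 0.0018), a value that was -0.80 and not past the threshold with normexp. Me1 had 2.61, 4.13, 3.93 and 3.79 in M0-p20 and 1.44, 1.97 and 1.88 in J365-p20, apart but not past the threshold (-1.85, adjusted p = 0.103). Nqo2, another quinone reductase, had 1.68, 1.52, 1.41 and 1.14 in M0-p20 and 2.45, 1.90 and 1.90 in J365-p20, higher without overlap but not past the threshold (0.65, adjusted p = 0.487). Nqo1 had -1.56, -1.53, -1.82 and -2.15 in M0-p20 and -2.45, -2.17 and -2.23 in J365-p20, also apart and not past it (-0.52, adjusted p = 0.626). Gsta3 had -3.72, -3.55, -3.95 and -3.37 against -6.45, -4.74 and -4.72, with no J365-p20 array above the background (-1.66, adjusted p = 0.265). Nfe2l2 was at 1.95, 1.79, 1.79 and 1.37 in M0-p20 and 2.20, 1.89 and 1.78 in J365-p20, and Keap1 at 2.70, 2.40, 1.97 and 2.04 and 2.43, 2.18 and 2.35. Both regulators overlapped between the lines. Replicate 0 of both leukemia lines was lower than the others for Hmox1, at 3.01 against 5.33 to 5.47 in M0-p20 and at 3.96 against 5.68 and 5.91 in J365-p20, and for Selenbp1, at 4.23 against 6.58 to 7.01 and at 4.50 against 5.88 and 5.99.

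The changes of Gsta4 and Gstt3 in B16-D differed from those in the dormant leukemia line. Gsta4 was high in both leukemia lines, at 0.53, 0.74, 0.79 and 0.40 in M0-p20 and 0.63, 0.72 and 0.37 in J365-p20. Gstt3 was at 2.22, 2.74, 2.56 and 2.43 and at 2.34, 2.44 and 2.37. The lines overlapped for both genes. The difference of the dormancy changes, J365-p20 minus M0-p20 less B16-D minus B16-M, was tested for 43 members, of which 3 passed (1 higher, 2 lower), where 1.35% of all genes did (0.711% higher, 0.639% lower). It was -4.67 for Gsta4 (adjusted p from limma 3.82e-06), 1.04 for Gstt3 (0.00179) and -0.69 for Txnrd2 (0.0442). With normexp the value of Gsta4 was -2.44. In melanoma Gsta4 met the filter only with arrays of the dormant lines, so its call is a description. The call of Txnrd2 was lost without 11 of the 13 arrays, each in turn, at -0.76 to -0.58. Txnrd2 itself was at 2.87, 3.28, 3.09 and 2.96 in M0-p20 and 3.03, 2.88 and 2.85 in J365-p20.

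**Figure D4:**
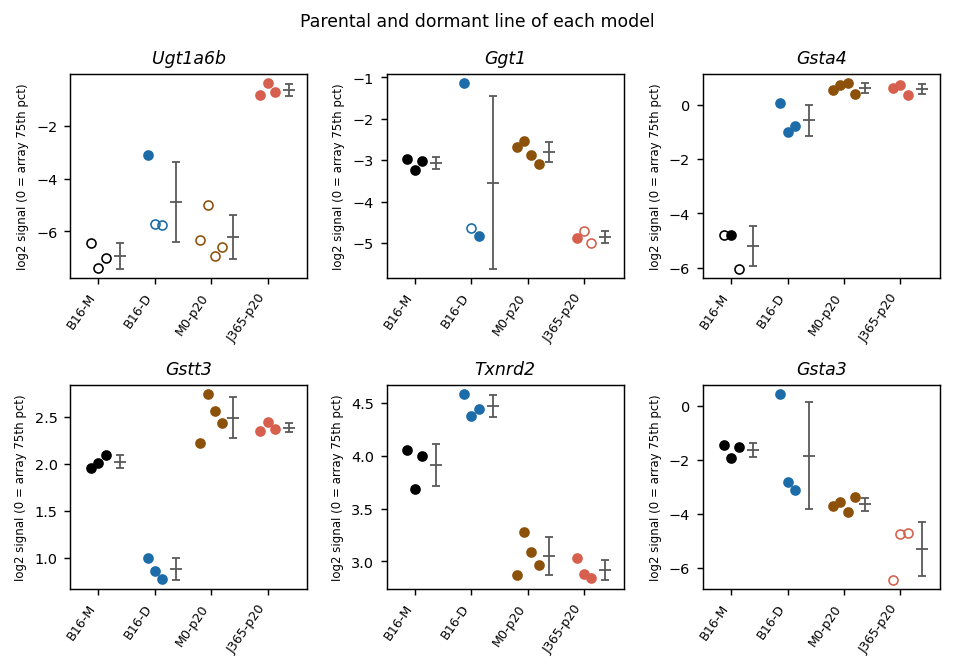
Log2 signal (y axis, 0 is the 75th percentile of the array) of Ugt1a6b, Ggt1, Gsta4, Gstt3, Txnrd2 and Gsta3 on each array of B16-M, B16-D, M0-p20 and J365-p20 (x axis). Points are arrays, open where the probe was not above the background, and bars give the mean ± SD. Ugt1a6b is above the background on all 3 J365-p20 arrays and on no M0-p20 array.

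More members passed between the parental lines than between any parental line and its dormant derivatives. Of 51 members, 35 passed in M0-p20 against B16-M (13 higher, 22 lower), where 56.2% of all genes did (31.1% higher, 25.2% lower). The median was 0.03 for the members and 0.19 for all genes. All 14 cytosolic and mitochondrial transferases passed (6 higher, 8 lower) and so did the 3 microsomal ones (2 higher, 1 lower), while none of the 4 superoxide dismutases and catalase did. Of the latter, Sod3 was at the background in both parental lines, so its levels there cannot be compared. These lines are of different cell types, so line and cell type cannot be told apart.

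The alpha, mu and kappa classes were mostly higher in melanoma. Gsta2 had 5.88, 5.34 and 4.93 in B16-M and -6.85, -6.77, -6.91 and -6.94 in M0-p20, at least 1045-fold lower in leukemia. Gstk1 was at -6.78, -6.74, -6.86 and -6.86 in M0-p20, at least 24.9-fold lower, and Gstm7 at -6.90, -6.73, -6.36 and -6.94, at least 2.83-fold lower. All 3 genes were at the background in M0-p20 and entered the test only through arrays of other lines, so their calls are descriptions. Gstm2 read 4.39, 4.26 and 4.35 in B16-M against -4.05, -3.30, -3.24 and -3.31 in M0-p20, Gstm1 -3.33, -2.70, -2.64 and -2.67 in M0-p20, and Gstm5 -1.61, -2.51, -1.22 and -1.56. They fell by 7.81, 6.32 and 4.58, with adjusted p from limma of 2.49e-15, 3.28e-14 and 1.57e-12. Mgst1 had -6.28, -5.25, -6.94 and -4.52 in M0-p20, with 1 array above the background. Its fitted difference of -8.75 (-5.70 with normexp) passed the threshold, and its size is set in part by the background.

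Gsta4 and the theta class were higher in leukemia. Gsta4 passed with a fitted difference of 5.82 (3.46 with normexp), a size set in part by the background, since 1 of the 3 B16-M arrays was above it. Gstt1 was at 3.41, 4.01, 3.92 and 3.70 in M0-p20 and rose by 5.22 (3.65e-12), Gstt2 rose by 1.32 and Gstt3 by 0.47. Mgst2, which makes leukotriene C4, had -2.36, -2.73 and -2.79 in B16-M and 3.80, 6.20, 6.13 and 6.01 in M0-p20, where replicate 0 was the lowest, and rose by 8.16 (2.04e-11). Selenbp1 was higher as well, at 4.23, 7.01, 6.78 and 6.58 in M0-p20, by 4.0 (9.37e-07).

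Beyond the transferases, some enzymes of the melanoma lines were at the background in leukemia. Gpx8, a peroxidase of the endoplasmic reticulum, had 3.49, 3.43 and 3.75 in B16-M and -6.73, -6.72, -6.82 and -6.91 in M0-p20, at least 295-fold lower. Prdx4, the peroxiredoxin of the same compartment, had 2.89, 2.91 and 3.30 against -6.74, -6.24, -6.84 and -6.13, at least 205-fold lower. Cbr3 had -6.94, -6.82, -6.97 and -7.08 in M0-p20, at least 147-fold lower. Gpx8, Prdx4 and Cbr3 entered the test only through arrays of other lines, and their calls are descriptions. Nfe2l2 differed by -1.76 (adjusted p from limma 1.08e-09), Nqo1 by 3.01 (0.000136) and Gclm by 2.00 (7.06e-06), while Keap1 differed by -0.09 and did not pass. Of the 35 calls, 1 was lost when single arrays were left out: Gsta3, at -2.01, without B16-M replicate 0, B16-M replicate 2, M0-p20 replicate 0 or M0-p20 replicate 2, at -2.15 to -1.91. Gstp1, Prdx1, Txnrd1, Gss and Srxn1 were among the others that fell, by 2.72, 2.04, 1.92, 1.69 and 1.62, and Prdx5 and Gsto1 among those that rose, by 2.51 and 2.07.

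**Figure D5:**
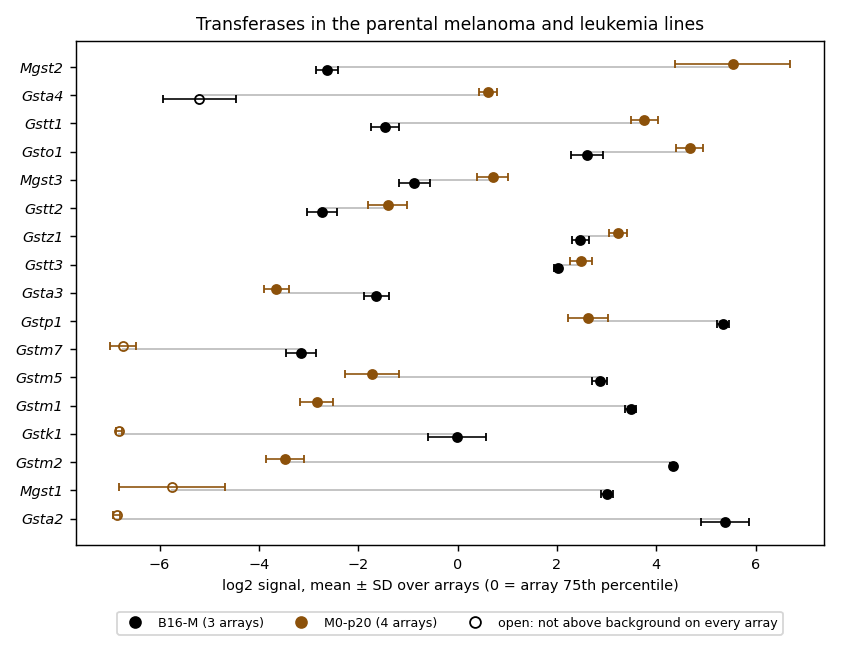
Mean log2 signal ± SD (x axis, 0 is the 75th percentile of the array) of the 17 transferases (y axis) in B16-M (3 arrays) and M0-p20 (4 arrays). Open symbols mark genes that were not above the background on every array of the line, and grey lines join the lines of a gene. Mgst2, Gsta4 and Gstt1 lie far to the right in M0-p20, and Gsta2, Mgst1 and Gstm2 in B16-M.

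Other genes of glutathione, thioredoxin and NADPH metabolism and of drug metabolism were read from a list of 86, of which 80 were on the array. Of 71 tested against B16-M, 2 passed in B16-D (1 higher, 1 lower), or 2.82% beside 3.57% of all genes, and 4 in B16-D-733 (all lower), or 5.63% beside 5.64%. In B16-D-735, 7 passed (3 higher, 4 lower), or 9.86% beside 5.05%, and in B16-D-739, 2 (both lower), or 2.82% beside 3.69%. Cbr2, a mitochondrial carbonyl reductase, fell by 1.61 in B16-D, 2.27 in B16-D-733 and 3.16 in B16-D-735 (adjusted p from limma 0.0481, 0.00288 and 0.000365). Abcc2, which exports glutathione conjugates, fell by 1.58 in B16-D-733 and 2.42 in B16-D-739 and rose by 1.20 in B16-D-735 (0.00656, 0.000529 and 0.0486), and between B16-D-735 and the other later lines it differed by 3.20 (6.25e-06). Gstm3, a gene of the mu cluster, fell by 1.22 in B16-D-735 (0.0202). In leukemia 2 of 66 passed, or 3.03% beside 1.07% of all genes. They were Cth, cystathionine gamma-lyase, at least 10.9-fold higher in J365-p20, and Gstp3, which fell by 1.70 (adjusted p from limma 0.0118). Cth was at the background on every M0-p20 array and entered the test only through the J365-p20 arrays. It had to differ, and its call is a description. Between the parental lines M0-p20 and B16-M, 57 of 73 passed (23 higher, 34 lower), or 78.1% beside 56.2% of all genes.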

How the data were processed

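RNA from 24 samples was hybridised to 1-colour Agilent mouse arrays on 3 slides of 8. Per the file headers and the submitters' processing notes, the authors extracted the spots with Feature Extraction 10.7.3.1, and the deposited intensity values are processed signals that were background-subtracted and spatially detrended, with no scaling between arrays. The deposited series table held the same values on all 24 arrays. The study's methods name GeneSpring GX without a test or a normalization.

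Spots of a probe were averaged after leaving out 2468 outlier spots. Signals were divided by the 75th percentile of their array and taken to log2. Of 56605 probes, 32994 had 1 gene symbol, 23611 none and 0 several, and the brightest probe over 23 arrays stood for a gene. B16-D replicate 2 was left out of all comparisons. B16-D-733 replicate 3 carries a title whose number repeats that of replicate 1. Genes were tested where 3 or more arrays were well above the background, with limma 3.58.1 (R 4.3.3), with Benjamini-Hochberg adjustment at 0.05. The melanoma lines shared one fit, as did the leukemia lines, and the parental lines and the difference of dormancy changes were read from fits over both. The number of arrays limits the precision. The code was tested on simulated data. Tables and plots were made in Python 3.11.15 with pandas 2.3.3, numpy 2.4.6 and matplotlib 3.10.9.

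The 54 members, the other pathway genes and the marker lists were chosen with earlier results of these data known. All members could be named, with values on every array for those past the threshold against a parental line (at most 14 per comparison, by size) and for Nfe2l2 and Keap1, and up to 3 other pathway genes per comparison by size of the called change.

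Same-numbered arrays deviated together in B16-D-733 and B16-M (correlations 0.58, 0.35 and 0.82) and in B16-D-739 and B16-M (0.74, 0.58 and 0.83). This comes from the data, as the labels state no pairing. In B16-D-739 and B16-M the same-numbered arrays also shared a slide, so number and slide cannot be told apart there. Correlations were also positive in B16-D-735 and B16-D (0.26 and 0.67) and in B16-D and B16-M (0.28 and 0.04). In the remaining comparisons they were not all positive.

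Alternatives were quantile normalization, normexp (on the median spot and background signals, offset 50), other filters and probe rules, blocks for replicate number and slide, the date mark of some titles as a covariate, the lines of a comparison alone, B16-D replicate 2 included, and each array left out. Promoters came from RefSeq on GRCm38.p6.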

Additional observations from a re-analysis of the deposited data

Results flagged for a closer look

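In lines with 4 arrays, the gap between an outlying array and its nearest neighbour was compared with the whole range of the line. Of 94 such sets of arrays, 11 had an array past the limit of Dixon's test, where chance gives about 1 in 20. In B16-D-733, replicate 0 was high for Nqo1 (gap over range 0.936, at -1.62 against -3.71 to -3.57), Gsta3 (0.854), Gstm2 (0.851) and Sod3 (0.849, at -0.90 against -2.75 to -2.47). Replicate 2 was low for Txn1 (0.893) and replicate 1 for Prdx2 (0.842, at 5.59 against 5.63 to 5.64). In M0-p20, replicate 0 was low for Hmox1 (0.944), Mgst2 (0.919), Gstm2 (0.912), Gstm1 (0.911) and Selenbp1 (0.845). The titles of B16-D-733 replicates 1 to 3 carry a date mark that replicate 0 lacks, and its part in these values was not tested.

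The change from parental to dormant cells differed between leukemia and melanoma for Gsta4 (-4.67), Gstt3 (1.04) and Txnrd2 (-0.69) on the log2 scale. They were tested by limma, with values and adjusted p given above for each, and the call of Gsta4 is a description.

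Gpx3, the extracellular glutathione peroxidase, was at a log2 signal of -4.35 and above the background on the array left out, B16-D replicate 2. That array had 90.3% of its spots above the background. Gpx3 was at the background on all other B16-D arrays, as on the B16-M arrays, so this value is no sign of a difference between the lines.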

How the results depend on the processing

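No called member reversed its direction under any alternative: of 1852 values of single genes, 1637 kept their side of the threshold and 215 lost it. Of 127 counts of called members under the alternatives, 114 stayed within 1.5 times the reported count. The lines of a comparison alone gave 2 members for B16-D against B16-M, 8 for B16-D-735 against B16-M and 2 for B16-D-735 against B16-D. B16-D-733 against B16-D gave 0 without a filter and with the replicate block, and 2 with the date mark as a covariate. B16-D-739 against B16-D gave 1 with B16-D replicate 2, with normexp, with the stricter filter and with the slide as a block, and 2 with the date mark. B16-D-735 against both other later lines gave 7 without a filter, and J365-p20 against M0-p20 gave 1 with normexp. The causes were not tested. With single arrays left out, counts ran from 2 to 10 (B16-D against B16-M), 9 to 11 (B16-D-733), 9 to 11 (B16-D-735), 6 to 8 (B16-D-739), 0 to 0 (B16-D-733 against B16-D), 5 to 9 (B16-D-735 against B16-D), 0 to 0 (B16-D-739 against B16-D), 7 to 11 (B16-D-735 against the later lines), 1 to 3 (leukemia), 34 to 36 (parental lines) and 2 to 4 (difference of dormancy changes).

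In the paired comparisons the replicate block gave 11 members for B16-D-733 and 11 for B16-D-739 against B16-M, and it ended no call but that of Cbr3 in B16-D-739. Elsewhere the block gave 7 for B16-D and 15 for B16-D-735 against B16-M, and 9 for B16-D-735 and 0 for B16-D-739 against B16-D. It gave 13 for B16-D-735 against the other later lines, 2 in leukemia, 38 between parental lines and 2 for the difference of dormancy changes. Sizes of genes near the background are bounds or depend on the background correction, and close relatives may share probes.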
